A study of Homo sapiens with 20 samples.

Results

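The collagen genes are the 37 genes of the COL symbols measured here. They were taken by symbol, and their Ensembl identifiers were looked up in 5 tables of normalized read counts that together hold 31155 identifiers. The 20 RNA-seq libraries, 2 for each of 10 groups, come from H1, a widely used human embryonic stem cell (hESC) line. The groups were unmodified hESC, unmodified H1 cells turned towards surface epithelium for 3 days (SE day 3), and, at day 3 and at day 7 of the same procedure, cells treated with a short hairpin RNA against FOXO4 (shFOXO4) or SP6 (shSP6) and cells treated with a scramble hairpin. Each of the 4 knockdown groups had scramble libraries of its own, in the same table of 4 libraries. FOXO4 and SP6 are transcription factors of the forkhead and the SP zinc finger families, and the series asked how they act in the differentiation. All groups come from the single line H1, the hairpin sequences are not given in the sources used here, no unmodified cells at day 7 were analysed here, and the labels do not say whether the 2 libraries of a group came from separate cultures, so the p-values below measure the spread between these libraries only.

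Collagens are extracellular proteins in which chains wind into a triple helix. Fibrillar collagens build the fibrils of connective tissue, type IV collagen builds the sheet of the basement membrane on which an epithelium sits, FACIT collagens decorate fibrils, and transmembrane collagens hold cells to their matrix. In skin, types IV, VII and XVII anchor the surface epithelium to the tissue below, while types I, III and V are made mainly by the fibroblasts underneath.

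Recovered depth was 14937104 to 30328846 reads in 18 libraries, and the other 2 libraries had no read number that could be recovered. FOXO4 stood at 1875 and 2026 normalized counts in scramble against 322 and 319 in shFOXO4 libraries at day 3, and at 1206 and 1009 against 35.5 and 35.5 at day 7. SP6 stood at 1790.3 and 1939 in scramble against 203 and 322 in shSP6 libraries at day 3, and at 4077 and 3040.1 against 85.7 and 93.1 at day 7. FOXO4 was not called in shSP6 cells at day 3 (3084 and 3779 in scramble, 3197 and 3351 with shSP6) but was 17.6% of scramble there at day 7, and SP6 was 34.2% and 9.68% of scramble in shFOXO4 cells at day 3 and day 7. All 9 surface epithelium markers rose at SE day 3, from a summed 19655 and 19912 to 111483 and 104657 normalized counts, and all 9 were lower in each of the 4 knockdowns. The summed pluripotent markers stood at 117485 and 116977 in hESC and still at 72631 and 76212 at SE day 3. Of 7 pluripotent markers, 2 rose and 5 fell at SE day 3, and 7 and 6 were higher with shFOXO4 (day 3, day 7), 6 with shSP6 at day 3, and 5 higher and 2 lower with shSP6 at day 7. Neural crest markers were called in both directions in all 5 comparisons.

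More collagen genes were lower than higher at SE day 3 against hESC. A gene was called at a limma adjusted p under 0.05, and changes are given as log2 differences of normalized counts after adding 1. Of the 37 members, 34 reached a mean of 10 and were tested: 10 rose, 19 fell and 5 were not called, while over all 16217 genes tested 35.2% rose and 37.0% fell (72.2% in either direction). The members' median change was -0.33, against -0.02 over all genes. By at least 2-fold, 6 members rose and 10 fell, against 12.2% and 16.4% of all genes. The COL1A1, COL2A1, COL3A1, COL4A5, COL4A6 and COL9A2 RNAs made up the 6.

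Each knockdown moved collagen genes in both directions. With shFOXO4 at day 3, 8 of 34 tested members rose and 17 fell (31.8% and 30.8% of all genes tested, 62.7% together). With shFOXO4 at day 7, 16 of 34 rose and 16 fell (37.1% and 35.4%, together 72.6%). With shSP6 at day 3, 19 of 36 rose and 11 fell (28.3% and 27.5%, together 55.8%), and with shSP6 at day 7, 16 of 34 rose and 12 fell (29.0% and 29.6%, together 58.6%). At day 3 the balance thus lay on the lower side with shFOXO4 and on the higher side with shSP6. Among members that moved by at least 2-fold, 1 rose and 10 fell with shFOXO4 at day 3 (6.17% and 8.61% of all genes), whereas 12 rose and 6 fell with shSP6 at day 3 (8.43% and 7.74%).

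**Figure D1:**
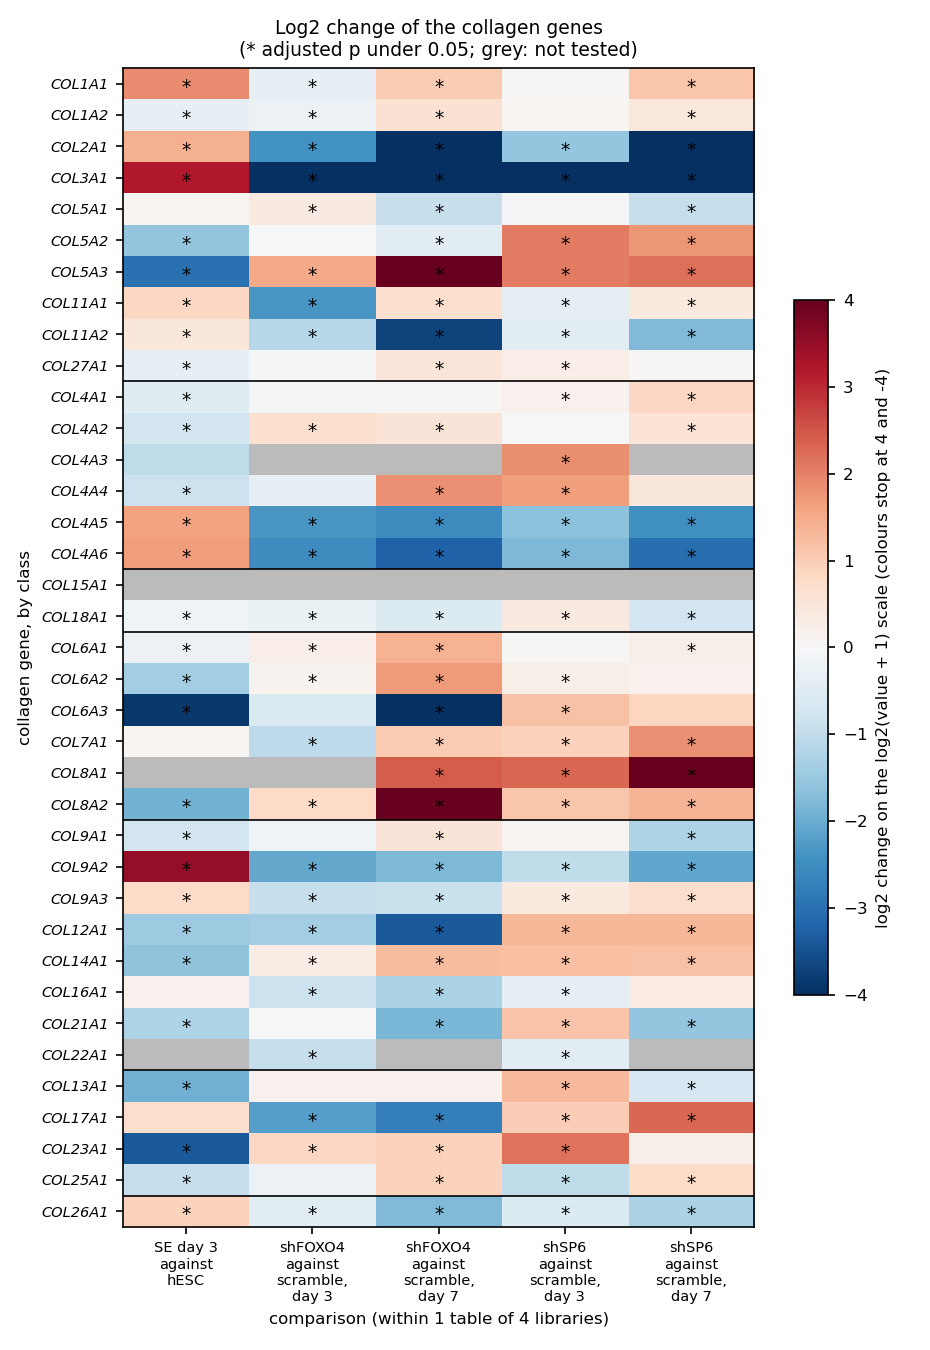
Log2 change of each of the 37 collagen genes (rows, by class: fibrillar, basement membrane, multiplexin, network and anchoring, FACIT, transmembrane, COL26A1) in the 5 comparisons (columns); red is higher, blue lower than the control of the same table, stars mark calls and grey marks members that were not tested. COL2A1, COL3A1, COL11A2, COL4A5, COL4A6, COL9A2 and COL26A1 are red in the SE day 3 column and blue in all 4 knockdown columns.

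Of the 33 members tested in all 5 comparisons, 7 (21.2%) were lower in all 4 knockdowns, against 12.3% of the 14673 genes tested in all 5: COL2A1, COL3A1, COL11A2, COL4A5, COL4A6, COL9A2 and COL26A1. These 7 were all higher at SE day 3 than in hESC. Such a rise was common among all genes lower in both day 7 knockdowns, at 2605 of 3470 (75.1%). The share among all genes lower in all 4 knockdowns was not computed. Only COL5A3, COL8A2 and COL14A1 (9.09%, against 10.4% of all genes) were higher in all 4. Another 15 (45.5%, against 21.8% of all genes) were higher in at least 1 knockdown and lower in at least 1 other. The call of COL11A2 with shSP6 at day 3 was lost without shSP6 replicate 2 (log2 change -0.39, adjusted p = 0.0833), and that of COL14A1 with shFOXO4 at day 3 without shFOXO4 replicate 2 (0.14, adjusted p = 0.276).

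Among the fibrillar collagens, the type III gene COL3A1 had the largest fall in all 4 knockdowns. COL3A1 encodes the chain of type III collagen of skin and vessel walls. It stood at 5.78 and 2.17 normalized counts in hESC and at 50.6 and 34.0 at SE day 3, a log2 change of 3.20 (SE 0.45, limma adjusted p = 2.99e-05). Day 3 scramble libraries held 324 and 284 (FOXO4 series) and 419 and 249 (SP6 series), and shFOXO4 libraries held 0 and 1.73, shSP6 libraries 3.23 and 17.3. No knockdown library overlapped its scramble group, but the share of all genes for which this held was not computed. With 2 libraries per group it is common. Even between the 2 day 7 scramble groups, 81.4% of all genes and 78.8% of collagen genes did not overlap.

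At day 7 the gap was wider still. The scramble libraries of the FOXO4 series held 18595 and 20714 normalized COL3A1 counts and the shFOXO4 libraries 1.31 and 2.09. In the SP6 series, 6013 and 2382 in scramble stood against 3.78 and 6.12, a log2 change of -9.34 (SE 0.37, limma adjusted p = 4.63e-08). Only 2 COL3A1 reads were recovered over both shFOXO4 libraries at day 3 and 3 at day 7, so those falls are given as ratios of 319 (95% counting interval 88.4 to 2638) and 11256 (3852 to 54580). These intervals cover counting error only. In such bulk RNA, fewer cells that make a transcript and less transcript per cell cannot be told apart.

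Markers of mesenchyme, the tissue whose fibroblasts make type III collagen, moved in part with COL3A1. LUM and DCN, small proteoglycans that bind collagen fibrils, stood at 1229 and 1296 (LUM) and 499.6 and 464 (DCN) in the day 7 scramble libraries of the FOXO4 series, and both were at 0 in both shFOXO4 libraries. In the SP6 series LUM stood at 701 and 416 in scramble and at 0 in both shSP6 libraries, and DCN at 106 and 47.6 against 0.630 and 0. Of the 12 mesenchymal markers, 2 were higher and 6 lower of 10 tested with shFOXO4 at day 7, and 5 were higher and 4 lower of 10 with shSP6. Their summed level was higher with the hairpins, 9186 to 9815 against 3446 to 3455 (shFOXO4) and 7298 to 7534 against 3030.1 to 3109 (shSP6), and THY1 supplied 9137 and 8466 of it with shFOXO4 and 5797 and 5515 with shSP6. At day 3, where the scramble sums ran from 2372 to 3617 and the knockdown sums from 2407 to 3735, 2 markers were higher and 6 lower of 10 with shFOXO4, and 2 higher and 7 lower of 10 with shSP6. LUM was then at 0 in all 4 knockdown libraries, against 14.3 and 13.6 in the scramble libraries of the FOXO4 series and 96.5 and 33.4 in those of the SP6 series. At SE day 3, where COL3A1 rose, 6 were higher and 2 lower of 8, and the sum went from 8452 and 8379 to 2303 and 2360 with the fall of THY1. In hESC 4 of the 12 (TWIST2, PRRX1, LUM and DCN) were at 0. The part of mesenchyme-like cells in the COL3A1 result was not tested.

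**Figure D2:**
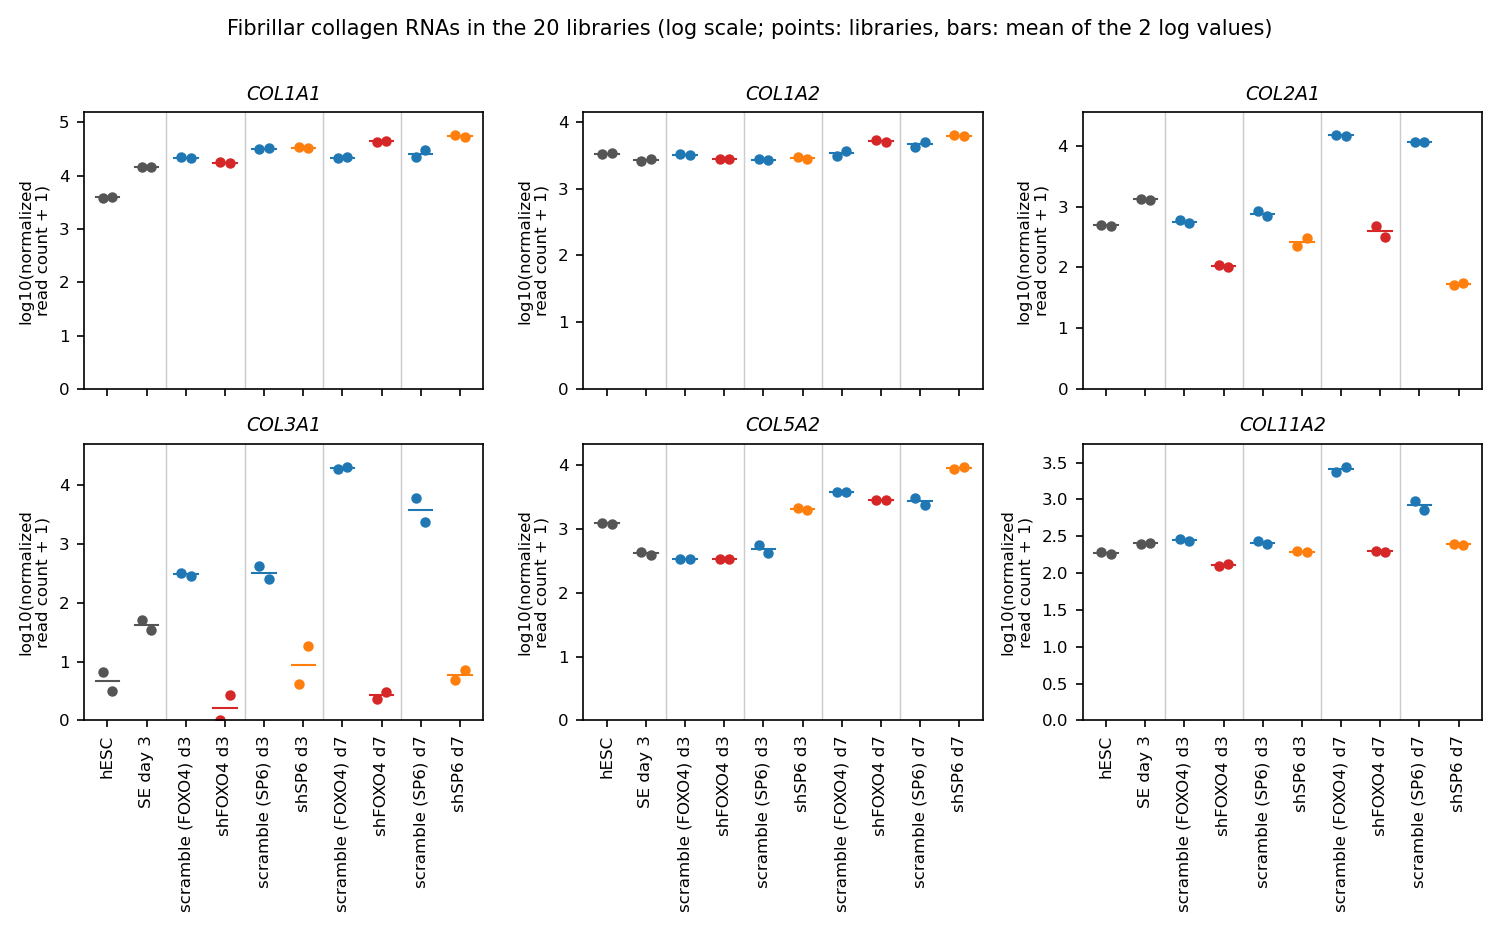
Levels of 6 fibrillar collagen RNAs in the 20 libraries, as log10 of the normalized count plus 1; points are libraries, short bars the mean of the 2 log values of a group, and vertical lines separate the 5 tables, which were scaled separately. COL3A1 falls from 18595 and 20714 to 1.31 and 2.09 between scramble and shFOXO4 at day 7, while COL1A1 lies higher in both day 7 knockdowns than in scramble.

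COL2A1, the chain of type II collagen of cartilage, followed the same direction at a higher level. It rose at SE day 3 from 500.3 and 479 to 1339 and 1284 normalized counts, a log2 change of 1.42 (SE 0.06, limma adjusted p = 5.32e-10). At day 3 it fell 5.36-fold with shFOXO4, from 598 and 531 to 111 and 100.2, and 2.91-fold with shSP6, from 829.7 and 699.8 to 224 and 302. At day 7 the scramble libraries had reached 14804 and 14609.9 (FOXO4 series) and 11320.1 and 11347 (SP6 series), and the knockdown libraries held 485 and 316 (shFOXO4) and 51.1 and 55.1 (shSP6), 36.7 and 213 times lower. The log2 changes were -5.23 (SE 0.16, limma adjusted p = 1.09e-08) with shFOXO4 and -7.71 (SE 0.09, limma adjusted p = 5.23e-11) with shSP6. All 4 comparisons kept the groups apart, which is common with 2 libraries per group (81.4% of all genes between the day 7 scramble groups).

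Type XI collagen forms mixed fibrils with type II. Its gene COL11A2 went from 191 and 179 in hESC to 245 and 259 at SE day 3, and at day 7 it fell 13.2-fold with shFOXO4 (from 2386 and 2804 to 201 and 193) and 3.43-fold with shSP6 (from 961 and 717 to 250.3 and 239). COL11A1 changed direction with the day. It fell from 1738 and 1538 to 326 and 320.4 with shFOXO4 at day 3, -2.33 (SE 0.07, limma adjusted p = 4.92e-30), and rose from 423 and 484 to 734 and 722 at day 7, 0.69 (SE 0.10, limma adjusted p = 1.62e-04). With shSP6 it was -0.39 at day 3 and 0.40 at day 7, the latter lost without shSP6 replicate 2 (0.35, adjusted p = 0.0688).

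Of 7 chondrocyte markers, SOX9, a regulator of COL2A1, and HAPLN1, which links hyaluronan in cartilage matrix, were lower in shSP6 cells on both days. In shFOXO4 cells HAPLN1 was also lower on both days, and SOX9 at day 3 only. At day 7 HAPLN1 stood at 6418 and 6764 in scramble and 621 and 569 with shFOXO4, and at 8720.0 and 7427 in scramble and 20.8 and 22.0 with shSP6. CNMD, another cartilage gene, was higher in all 4 knockdowns. At day 7, 4 markers were higher and 1 lower of 6 tested with shFOXO4, and 3 higher and 2 lower of 7 with shSP6; at day 3, 1 was higher and 2 lower of 5 with shFOXO4, and 2 higher and 2 lower of 6 with shSP6. Their summed level was 7522 to 10162 in day 7 scramble libraries and 1906 to 3945 with the hairpins, and 6435 to 8773 against 4192 to 5572 at day 3. HAPLN1 alone supplied most of the day 7 scramble sums, with 6418 to 8720.0. Of 5 tested at SE day 3, 2 were higher and 3 lower than in hESC, with sums of 7875 and 7902 against 2949.8 and 3060.0. Their part in the COL2A1 result was not tested.

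The 2 genes of type I collagen parted at SE day 3. Type I collagen, the main collagen of skin, bone and tendon, is assembled from COL1A1 and COL1A2 chains. COL1A1 rose 3.68-fold, from 3766 and 4031 to 14476 and 14203, a log2 change of 1.88 (SE 0.04, limma adjusted p = 4.31e-13). COL1A2 fell, from 3243 and 3426 to 2549 and 2772, a log2 change of -0.33 (SE 0.05, limma adjusted p = 7.23e-05). Per kilobase of transcript, COL1A1 was thus 0.934 and 0.946 times COL1A2 in the hESC libraries and 4.57 and 4.12 times COL1A2 at SE day 3. The ratio stayed above 4 in all 16 knockdown and scramble libraries, from 4.16 in a day 7 scramble library to 9.82 in a day 3 scramble library of the SP6 series. These ratios are within a library, so the separate scaling of the tables does not enter them.

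The knockdowns moved the type I genes less at day 3 than at day 7. At day 3, shFOXO4 lowered COL1A1 from 22353 and 21049 to 17725 and 16959, -0.32 (SE 0.04, limma adjusted p = 4.64e-10), and COL1A2 from 3242 and 3195 to 2748 and 2753, -0.23 (SE 0.04, limma adjusted p = 2.30e-05). With shSP6 neither was called at day 3, at 0.06 (SE 0.06, limma adjusted p = 0.362) for COL1A1 and 0.07 (SE 0.06, limma adjusted p = 0.327) for COL1A2. Without scramble replicate 2 the COL1A1 difference was called there (0.10, adjusted p = 0.0426). At day 7 both genes rose with both hairpins. COL1A1 went from 21489.9 and 21985 to 43539 and 44816 with shFOXO4, 1.02 (SE 0.05, limma adjusted p = 2.46e-07), and from 21994 and 29892 to 57061 and 52608 with shSP6, 1.10 (SE 0.13, limma adjusted p = 4.95e-05). COL1A2 rose by 0.62 (SE 0.08, limma adjusted p = 8.60e-05) and 0.44 (SE 0.08, limma adjusted p = 0.00141), so that type I rose at day 7 in the same libraries in which types II and III fell.

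Type V collagen helps to start type I fibrils, and its gene COL5A2 went in opposite directions with the 2 hairpins at day 7. COL5A2 fell at SE day 3 from 1257 and 1221 to 444 and 390.1, -1.57 (SE 0.08, limma adjusted p = 8.76e-10). With shSP6 it rose on both days, from 555 and 423 to 2134 and 1991 at day 3, 2.09 (SE 0.11, limma adjusted p = 1.57e-07), and from 3103 and 2405 to 8905 and 9634 at day 7, 1.76 (SE 0.11, limma adjusted p = 9.08e-07). With shFOXO4 it was at -0.01 at day 3, not called, and it fell at day 7, with a log2 change of -0.41 (SE 0.05, limma adjusted p = 1.13e-04). COL5A1 stood at 546 and 568 in hESC and 549.8 and 631 at SE day 3, not called. It rose with shFOXO4 at day 3 from 421 and 443 to 567 and 545, 0.37 (SE 0.08, limma adjusted p = 5.53e-05), was not called with shSP6 at day 3 (-0.04), and fell at day 7 with both hairpins (log2 changes -0.91 and -0.94). COL5A3 was low in the day 7 scramble libraries (6.69 and 1 in the FOXO4 series, 30.7 and 48.7 in the SP6 series) and stood at 183 and 186 with shFOXO4 and 188 and 173 with shSP6. COL27A1, a fibrillar collagen of cartilage, moved by -0.33 at SE day 3 and by 0.48 with shFOXO4 at day 7, and its call with shSP6 at day 3 (0.26) was lost without either shSP6 library (0.25 and 0.26, adjusted p = 0.145 and 0.130). Over the 10 fibrillar genes, 5 rose and 4 fell at SE day 3, 2 rose and 6 fell with shFOXO4 at day 3, 5 rose and 5 fell at day 7, and with shSP6 3 rose and 4 fell at day 3 and 5 rose and 4 fell at day 7. Over all genes tested, 35.2% rose and 37.0% fell at SE day 3. The shares were 31.8% and 30.8% with shFOXO4 at day 3 and 37.1% and 35.4% at day 7. With shSP6 they were 28.3% and 27.5% at day 3 and 29.0% and 29.6% at day 7.

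Type IV collagen is encoded by pairs of genes that lie head to head, each pair around a short stretch of shared upstream sequence. The stretches before COL4A1 and COL4A2 and before COL4A5 and COL4A6 are shown because these 2 pairs behaved differently in the libraries. They are the bases that lie before the RefSeq start of both genes of a pair and within 250 bases of each, read on the plus strand of GRCh38.p14, with capitals marking a CCAAT (or ATTGG on the other strand) or a GGGCGG match. The COL4A1 and COL4A2 stretch is chr13:110307158-110307283, 126 bases between starts 127 bases apart. The COL4A6 and COL4A5 stretch is chrX:108439588-108439708, 121 bases inside starts 380 bases apart.
COL4A1/COL4A2: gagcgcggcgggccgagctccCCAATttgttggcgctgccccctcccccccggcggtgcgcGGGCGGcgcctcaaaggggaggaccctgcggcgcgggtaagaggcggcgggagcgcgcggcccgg
COL4A6/COL4A5: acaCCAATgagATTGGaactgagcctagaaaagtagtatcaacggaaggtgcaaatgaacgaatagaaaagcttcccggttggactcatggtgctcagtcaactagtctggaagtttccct
The COL4A1 and COL4A2 stretch is 80.2% G and C with 1 GGGCGG and 1 CCAAT match, and the COL4A6 and COL4A5 stretch is 44.6% G and C with 2 CCAAT matches and no GGGCGG. The COL4A6 start used is the one nearest to COL4A5. The window of another COL4A6 start, chrX:108438373-108438672, holds 1 GGGCGG and 0 CCAAT matches. Neither holds TGTTTAC, the core letters bound by forkhead factors, or TATAAA. Counted on both strands over all 35116 RefSeq promoter windows of 300 bases, GGGCGG occurs in 45.0%, CCAAT in 34.6%, TATAAA in 11.5% and TGTTTAC in 3.42%. In the 36 windows of the 27 collagen genes that the promoter table holds, GGGCGG occurred in 22 (61.1%), CCAAT in 11 (30.6%), TATAAA in 5 (13.9%) and TGTTTAC in 0. Some genes have more than 1 window. Counted by gene, GGGCGG occurred in 19 of the 27, CCAAT in 10, TATAAA in 5 and TGTTTAC in 0. The other 10 collagen genes, among them COL1A1, COL1A2, COL2A1 and COL3A1, had no window and are not covered by these counts. A match describes letters and shows no binding.

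COL4A5 and COL4A6, whose chains form the type IV network of the skin's basement membrane, moved together in every comparison. COL4A5 rose from 599.6 and 620.5 in hESC to 1899 and 1837 at SE day 3, 1.61 (SE 0.06, limma adjusted p = 5.35e-11). COL4A6 rose from 522 and 462 to 1628 and 1541, 1.69 (SE 0.07, limma adjusted p = 2.48e-10). Both fell in all 4 knockdowns, and no knockdown library overlapped its scramble group. Such separation is common with 2 libraries per group (81.4% of all genes between the day 7 scramble groups).

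With shFOXO4, COL4A5 fell from 1675 and 1632 to 299 and 360.2 at day 3, -2.33 (SE 0.07, limma adjusted p = 3.23e-29), and from 1874 and 1931 to 323 and 337 at day 7, -2.52 (SE 0.08, limma adjusted p = 1.14e-08). COL4A6 fell from 1227 and 1284 to 214 and 225, -2.51 (SE 0.07, limma adjusted p = 8.43e-30), and from 2318 and 2444 to 263 and 246, -3.22 (SE 0.08, limma adjusted p = 4.00e-09). The shFOXO4 libraries therefore lay below the hESC range in normalized counts, although the tables were scaled separately and no test was made across them. With shSP6, COL4A5 fell from 1918 and 1541 to 536 and 573 at day 3, -1.63 (SE 0.10, limma adjusted p = 3.18e-07), and from 2125 and 1755 to 317 and 382 at day 7, -2.47 (SE 0.12, limma adjusted p = 2.06e-07). COL4A6 fell from 1515 and 1146 to 337 and 423, -1.80 (SE 0.13, limma adjusted p = 1.34e-06), and from 2255 and 1827 to 231 and 268, -3.02 (SE 0.12, limma adjusted p = 6.14e-08). Per kilobase, COL4A5 was 0.823 to 1.67 times COL4A6 over the 20 libraries, and it was below 1 only in 3 of the 4 day 7 scramble libraries.

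COL4A1 and COL4A2, the chains of nearly every basement membrane, kept close to their controls by comparison. Against hESC, COL4A1 fell at SE day 3 from 2734 and 2753 to 1907 and 2004, -0.49 (SE 0.05, limma adjusted p = 7.88e-07), and COL4A2 from 2831 and 2694 to 1561 and 1744, -0.74 (SE 0.06, limma adjusted p = 9.65e-08). COL4A1 was not called with shFOXO4, where 2615 and 2541 in scramble stood against 2476 and 2563 at day 3 (-0.03, SE 0.05, limma adjusted p = 0.547) and 2390.1 and 2749.8 against 2597 and 2690.1 at day 7 (0.04, SE 0.07, limma adjusted p = 0.612). With shSP6 at day 7 it rose from 1839.6 and 2085 to 3539 and 3450.1, 0.83 (SE 0.08, limma adjusted p = 1.78e-05). Its call with shSP6 at day 3, 0.17 (SE 0.06, limma adjusted p = 0.0259), was lost without either shSP6 library (0.13 and 0.22, adjusted p = 0.344 and 0.0713).

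COL4A2 rose with shFOXO4 on both days while its partner did not. At day 3 it went from 1614 and 1584 to 2481 and 2532, 0.65 (SE 0.05, limma adjusted p = 1.64e-15), and at day 7 from 2856 and 3006 to 4165 and 4293, 0.53 (SE 0.06, limma adjusted p = 2.95e-05). With shSP6 it was not called at day 3, -0.01 (SE 0.06, limma adjusted p = 0.891), and rose from 2100.3 and 2258 to 3283 and 3096 at day 7, 0.55 (SE 0.08, limma adjusted p = 1.91e-04). Per kilobase, COL4A1 was 1.58 and 1.59 times COL4A2 in the day 3 scramble libraries of the FOXO4 series and 0.979 and 0.993 times with shFOXO4. COL4A4, which pairs with COL4A3 in kidney and lung membranes, was low, at 68.4 and 65.0 in hESC and 39.0 and 34.0 at SE day 3, and rose with shFOXO4 at day 7 (1.84) and shSP6 at day 3 (1.66). COL4A3 reached a mean of 10 in 2 tables: it was -1.01 (SE 0.51, limma adjusted p = 0.0920) at SE day 3, not called, and rose with shSP6 at day 3 from 8.87 and 11.1 to 34.0 and 43.4. At SE day 3 its difference was called without hESC replicate 1 (-1.67, adjusted p = 0.0295), with edgeR (-1.13, adjusted p = 0.0481) and with a block for the replicate number (-1.01, adjusted p = 0.0487). Primitive endoderm, an embryonic source of type IV collagen, had summed marker levels of 527 to 1084 in the scramble libraries and 87.1 to 483 with the hairpins, and of 55.2 to 55.9 in hESC and 264 to 271 at SE day 3. Of its 7 markers 4 rose and 0 fell of 5 at SE day 3, 0 rose and 4 fell of 4 with shFOXO4 at day 3 and 2 and 2 of 4 at day 7, and 1 rose and 3 fell of 5 with shSP6 on each day, and their part was not tested. Of the type IV genes tested, 2 rose and 3 fell of 6 at SE day 3, 1 rose and 2 fell of 5 with shFOXO4 at day 3, 2 rose and 2 fell of 5 in each day 7 knockdown, and 3 rose and 2 fell of 6 with shSP6 at day 3. Over all genes tested, 35.2% rose and 37.0% fell at SE day 3. The shares were 31.8% and 30.8% with shFOXO4 at day 3 and 37.1% and 35.4% at day 7. With shSP6 they were 28.3% and 27.5% at day 3 and 29.0% and 29.6% at day 7.

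**Figure D3:**
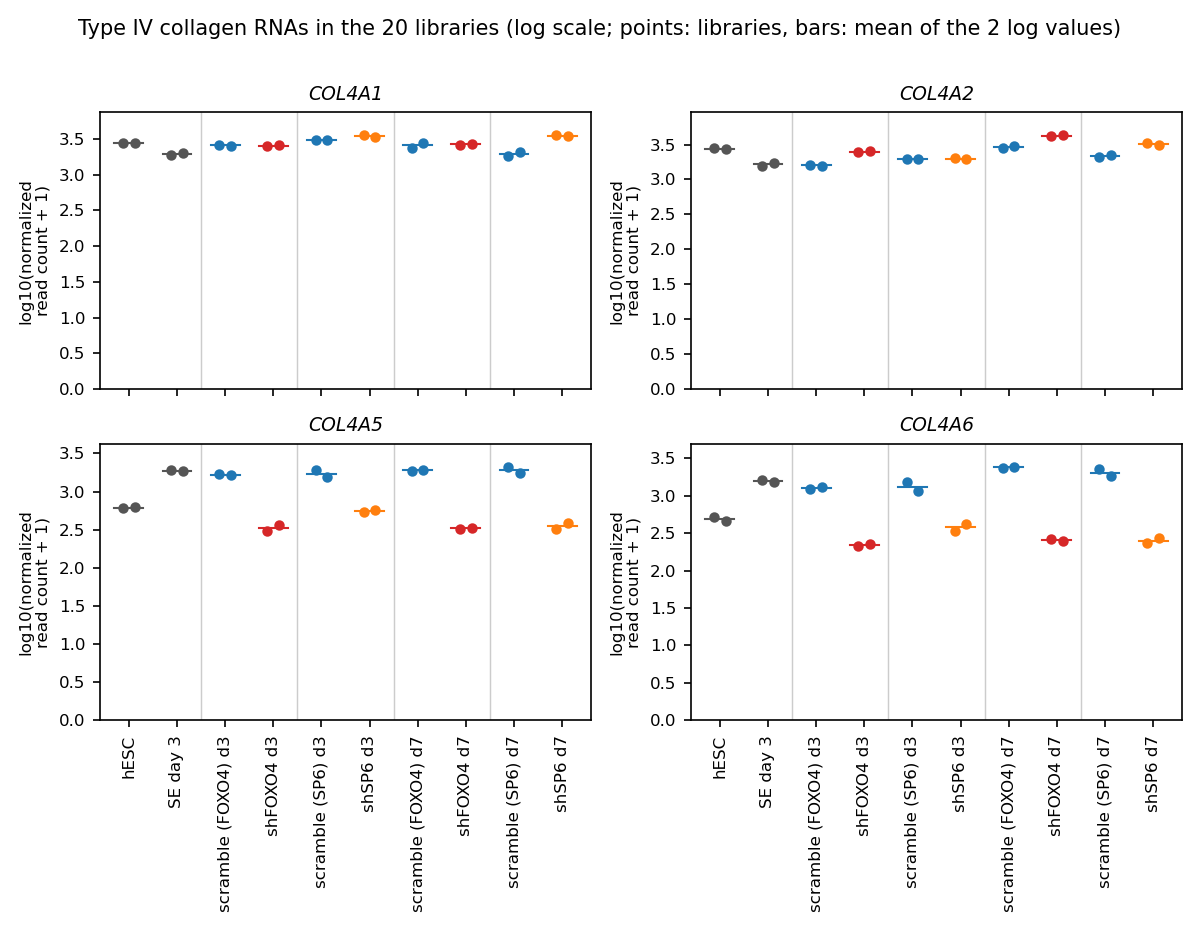
Levels of 4 type IV collagen RNAs in the 20 libraries, as log10 of the normalized count plus 1; points are libraries, short bars the mean of the 2 log values of a group, and vertical lines separate the 5 tables. COL4A5 and COL4A6 lie higher in SE day 3 and scramble libraries than in hESC and knockdown libraries, while the log2 changes of COL4A1 and COL4A2 between control and treated groups lie between -0.74 and 0.83.

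COL18A1, a multiplexin of basement membranes and the source of endostatin, was among the members with smaller changes. It stood at 6036 and 6303 in hESC and 5348 and 5599.6 at SE day 3, -0.17 (SE 0.04, limma adjusted p = 0.00190). It fell in 3 knockdowns, by most with shSP6 at day 7, from 4349 and 4272 to 2621 and 2475, -0.76 (SE 0.07, limma adjusted p = 1.38e-05), and rose with shSP6 at day 3 (0.37). The other multiplexin, COL15A1, had a mean under 10 in all 5 tables and was not tested, with 0 to 12.5 normalized counts per library.

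Of the 5 network and anchoring collagens tested at SE day 3, 4 fell, 0 rose and COL7A1 was not called, while 37.0% of all genes fell. With shFOXO4, 3 rose and 1 fell of 5 at day 3 and 5 rose and 1 fell of 6 at day 7, while 31.8% and 37.1% of all genes rose. With shSP6, 5 of 6 rose at day 3 and 4 of 6 at day 7, and 0 fell, while 28.3% and 29.0% of all genes rose.

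COL6A3, the longest chain of the beaded filaments of type VI collagen, had a called change opposite to its partners only with shFOXO4 at day 7. At SE day 3 it fell 15.5-fold, from 246 and 247 to 15.8 and 16.1, -3.87 (SE 0.19, limma adjusted p = 1.34e-09). Day 7 scramble libraries of the FOXO4 series held 1419.5 and 1192 and shFOXO4 libraries 59.1 and 50.2, a fall of 23.9-fold, -4.55 (SE 0.14, limma adjusted p = 1.32e-08). In the SP6 series the day 7 scramble libraries differed from each other, at 318 and 95.2, against 329 and 301 with shSP6, and the difference was not called, 0.85 (SE 0.41, limma adjusted p = 0.103). Without scramble replicate 1 it was called (1.72, adjusted p = 1.63e-07), as it was with a block for the replicate number (0.85, adjusted p = 0.00818) and in a fit over all 20 libraries (adjusted p = 0.0327). At day 3 COL6A3 rose with shSP6 from 57.7 and 60.7 to 134 and 138, and with shFOXO4 it stood at 20.5 and 18.9 in scramble and 9.56 and 17.3, not called.

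COL6A1 and COL6A2, the other chains of type VI, rose with shFOXO4 at day 7, COL6A1 from 1869 and 1483 to 4324 and 4415, 1.39 (SE 0.10, limma adjusted p = 1.70e-06), and COL6A2 from 1075 and 808 to 3200.3 and 2892, 1.71 (SE 0.12, limma adjusted p = 1.81e-06). In these same libraries COL6A3 fell. COL6A2 fell at SE day 3 from 3115 and 3206 to 1153 and 1271, -1.38 (SE 0.06, limma adjusted p = 1.41e-10), and COL6A1 by less, -0.23 (SE 0.05, limma adjusted p = 9.50e-04). The other called changes of this pair were under 0.3 in size, and each was lost under at least 1 alternative except that of COL6A1 with shFOXO4 at day 3 (0.27, SE 0.05, limma adjusted p = 8.60e-06). COL6A2 with shFOXO4 at day 3 (0.14) gave 0.09 and 0.13 without scramble replicate 1 and shFOXO4 replicate 1 (adjusted p = 0.310 and 0.0924), and with shSP6 at day 3 (0.24) 0.21 without shSP6 replicate 2 (adjusted p = 0.116). COL6A1 with shSP6 at day 7 (0.24) gave 0.15 to 0.26 without scramble replicate 2 or either shSP6 library (adjusted p = 0.0775 to 0.163), while COL6A2 there was called only without shSP6 replicate 2 (0.29, adjusted p = 0.0386).

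COL7A1 encodes the chain of the anchoring fibrils below the epidermis, and it was not called at SE day 3, with 325 and 290.2 in hESC and 312 and 332, 0.07 (SE 0.10, limma adjusted p = 0.565). It fell with shFOXO4 at day 3, from 180.2 and 132 to 69.1 and 80.3, -1.04 (SE 0.16, limma adjusted p = 1.99e-07). It rose in the other 3 knockdowns, from 403 and 474 to 859 and 898 with shFOXO4 at day 7, 1.01 (SE 0.10, limma adjusted p = 1.70e-05), from 791 and 854 to 1557 and 1542 with shSP6 at day 3, 0.91 (SE 0.07, limma adjusted p = 1.56e-06), and from 452 and 595 to 1802 and 1911 at day 7, 1.84 (SE 0.12, limma adjusted p = 1.48e-06). Its day 3 scramble levels of 180.2 and 132 and 791 and 854 lay far apart between the 2 series, in tables scaled separately.

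Type VIII collagen forms short-chain networks under endothelia and in the cornea. COL8A1 was not tested at SE day 3 or with shFOXO4 at day 3, where it stood at 0 to 7.71 per library, and rose 18.8-fold with shSP6 at day 7, from 7.97 and 7.75 to 134 and 160.4, 4.06 (SE 0.28, limma adjusted p = 1.46e-06). COL8A2 fell at SE day 3 from 125 and 142 to 36.9 and 34.0 and rose in all 4 knockdowns, by most with shFOXO4 at day 7, from 5.73 and 3 to 94.6 and 77.3, 4.06 (SE 0.39, limma adjusted p = 1.43e-05). The scramble level there was low, against 58.1 and 67.5 in the day 7 scramble libraries of the SP6 series. The size of this change and its rank rest on that low level. The summed endothelial markers also stood higher in the knockdowns, at 4572 to 4872 against 760.4 to 874 with shFOXO4 and 9485 to 9729 against 1275 to 1709 with shSP6 at day 7, and at 3553 to 5743 against 2052 to 2285 at day 3. Single markers went both ways: 3 were higher and 3 lower of 6 with shFOXO4 and 2 higher and 3 lower of 6 with shSP6 at day 7, and 2 and 2 of 6 and 3 and 2 of 6 at day 3. Of 6 tested at SE day 3, 3 were higher and 2 lower, and the sum was 2016 and 2257 against 6021 and 6163 in hESC. Their part in the type VIII and type IV results was not tested.

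Among the FACIT collagens, the 3 genes of type IX collagen, which coats type II fibrils, did not move as a unit. COL9A2 rose 11.5-fold at SE day 3, from 159 and 136 to 1723 and 1680.5, 3.52 (SE 0.09, limma adjusted p = 1.54e-12). It fell in all 4 knockdowns, from 1285 and 1222 to 305 and 303 with shFOXO4 at day 3 (log2 change -2.04), with log2 changes of -1.80 at day 7 and of -1.02 and -2.09 with shSP6. COL9A3 rose at SE day 3 (0.76, SE 0.06, limma adjusted p = 1.32e-07), fell with shFOXO4 on both days (-0.91 and -0.90) and rose with shSP6 on both days (0.39 and 0.70). COL9A1 fell at SE day 3 from 417 and 376 to 221 and 250.3 and at day 7 with shSP6 from 245 and 291 to 115 and 110.2, -1.24 (SE 0.16, limma adjusted p = 1.06e-04). Its rise with shFOXO4 at day 7 (0.52, SE 0.16, limma adjusted p = 0.0183) was lost without scramble replicate 1 or shFOXO4 replicate 2 (0.48 and 0.39, adjusted p = 0.0551 and 0.136).

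COL12A1 and COL14A1 bind type I fibrils. COL12A1 fell with shFOXO4 and rose with shSP6. At day 7 it stood at 314 and 503 in scramble and 31.5 and 44.9 with shFOXO4, -3.37 (SE 0.26, limma adjusted p = 3.33e-06), and at 132 and 65.3 in scramble and 239.6 and 235 with shSP6, 1.34 (SE 0.28, limma adjusted p = 0.00209). At day 3 the changes were -1.40 and 1.34. COL14A1 fell at SE day 3 from 846 and 884 to 280.2 and 284, -1.61 (SE 0.08, limma adjusted p = 7.97e-10). It rose with shFOXO4 by 0.29 at day 3 and at day 7 from 425 and 423 to 1038 and 953, 1.23 (SE 0.09, limma adjusted p = 1.65e-06), and with shSP6 by 1.19 at day 3 and 1.16 at day 7.

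COL16A1 and COL21A1 were lower with shFOXO4 at day 7 (-1.28 and -1.82), and COL21A1 also with shSP6 at day 7 (-1.53). COL16A1 also fell with shFOXO4 at day 3 (-0.87). COL21A1 fell at SE day 3 (-1.24) and rose with shSP6 at day 3 from 56.6 and 60.7 to 128 and 131, 1.13 (SE 0.16, limma adjusted p = 1.79e-04). The small fall of COL16A1 with shSP6 at day 3 (-0.37, SE 0.15, limma adjusted p = 0.0499) was lost without scramble replicate 2 or shSP6 replicate 1 (-0.22 and -0.24, adjusted p = 0.168 and 0.334) and with no filter on low values (-0.37, adjusted p = 0.0660). COL22A1, a FACIT of tissue junctions, was lower in both day 3 knockdowns, with 94.2 and 64.0 against 36.1 and 44.9 for shFOXO4 (-0.93, SE 0.21, limma adjusted p = 1.84e-04) and 279.5 and 263 against 205 and 204 for shSP6 (-0.41, SE 0.11, limma adjusted p = 0.00922). The latter call was lost without either shSP6 library (-0.41 and -0.40, adjusted p = 0.0614 and 0.0654). Of the FACIT genes tested, 2 rose and 4 fell of 7 at SE day 3, 1 rose and 5 fell of 8 with shFOXO4 at day 3, 2 rose and 5 fell of 7 at day 7, and with shSP6 4 rose and 3 fell of 8 at day 3 and 3 rose and 3 fell of 7 at day 7. Over all genes tested, 35.2% rose and 37.0% fell at SE day 3. The shares were 31.8% and 30.8% with shFOXO4 at day 3 and 37.1% and 35.4% at day 7. With shSP6 they were 28.3% and 27.5% at day 3 and 29.0% and 29.6% at day 7.

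The transmembrane collagen COL17A1, which sits in the hemidesmosomes of epithelia and is a marker of stratified epithelium, was low in most libraries. It stood at 15.4 and 10.8 in hESC and 20 and 23.6 at SE day 3, not called, 0.71 (SE 0.36, limma adjusted p = 0.0930), although a fit over all 20 libraries called it (0.71, adjusted p = 0.0428). With shFOXO4 it fell from 21.5 and 29.4 to 4.25 and 5.18 at day 3, -2.20 (SE 0.42, limma adjusted p = 1.58e-05), and from 131 and 168 to 17.1 and 27.2 at day 7, -2.73 (SE 0.29, limma adjusted p = 2.74e-05). With shSP6 it rose, from 18.9 and 26.3 to 42.9 and 46.6 at day 3, 0.97 (SE 0.27, limma adjusted p = 0.00989), and from 26.2 and 19.9 to 131 and 104 at day 7, 2.31 (SE 0.26, limma adjusted p = 4.29e-05). The day 3 rise was lost without shSP6 replicate 2 (0.91, adjusted p = 0.0569).

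Of the other transmembrane collagens, COL23A1 fell 10.6-fold at SE day 3, from 255 and 272 to 23.2 and 26.4, -3.36 (SE 0.18, limma adjusted p = 2.32e-09), and COL13A1 3.81-fold, from 147 and 147 to 34.8 and 42.5. With shSP6 at day 3 both rose, COL23A1 from 37.7 and 43.5 to 181 and 189, 2.16 (SE 0.17, limma adjusted p = 1.87e-06), and COL13A1 from 64.3 and 93.0 to 206 and 179.9. With shFOXO4, COL23A1 rose by 0.84 at day 3 and 0.93 at day 7, calls that were lost without shFOXO4 replicate 1 at day 3 (0.69, adjusted p = 0.0693) and without either shFOXO4 library at day 7 (0.93 in both, adjusted p = 0.0679 and 0.0703). COL13A1 fell with shSP6 at day 7 (-0.66), a call lost without scramble replicate 1 or shSP6 replicate 2 (-0.57 and -0.55, adjusted p = 0.0665 and 0.105). COL25A1, a collagen of neurons, fell at SE day 3 (-0.93) and with shSP6 at day 3 (-1.0) and rose in both day 7 knockdowns (0.93 and 0.75); the last was lost without shSP6 replicate 2 (0.70, adjusted p = 0.0710). At SE day 3 no transmembrane member was called higher and 3 of 4 were called lower, while 35.2% of all genes rose and 37.0% fell. COL17A1 (0.71) was called higher only in the fit over all 20 libraries.

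COL26A1, which encodes a collagen with an EMI domain and belongs to none of these classes, rose at SE day 3 from 1444 and 1461 to 2735 and 2796, 0.93 (SE 0.05, limma adjusted p = 1.46e-09). It fell in all 4 knockdowns, by most with shFOXO4 at day 7, from 4532 and 4423 to 1402 and 1247, -1.76 (SE 0.07, limma adjusted p = 5.00e-08), and then with shSP6 at day 7, from 2954 and 2695 to 1178 and 1181, -1.26 (SE 0.08, limma adjusted p = 1.05e-06).

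The 2 knockdowns were next compared with each other, as the difference between the shSP6 and the shFOXO4 effect, each taken within its own table. At day 3, 23 of 34 collagen genes had a higher (less negative or more positive) change with shSP6 and 4 a lower one, against 18.7% and 18.1% (together 36.8%) of the 15476 genes tested. The median difference was 0.70 over the members and -0.01 over all genes. COL7A1, COL9A3, COL12A1, COL17A1 and COL18A1 fell with shFOXO4 and rose with shSP6, and the difference was 3.17 (SE 0.45, limma adjusted p = 4.95e-05) for COL17A1 and 2.73 (SE 0.29, limma adjusted p = 2.52e-06) for COL12A1, which have lower levels. Among members whose mean reached 100 in each table it was 2.10 (SE 0.14, limma adjusted p = 1.92e-08) for COL5A2 and 2.33 (SE 0.74, limma adjusted p = 0.0217) for COL3A1, whose fall was smaller with shSP6. The COL3A1 difference rests on few reads, and it missed the threshold with a pseudocount of 5 (1.14, adjusted p = 0.0745) and without shSP6 replicate 2, either scramble library of the FOXO4 series or shFOXO4 replicate 1 (1.27 to 2.42, adjusted p = 0.0604 to 0.135). COL4A2 went the other way, -0.66 (SE 0.07, limma adjusted p = 4.09e-06), as did COL5A1, -0.41 (SE 0.11, limma adjusted p = 0.0108), a call lost without shSP6 replicate 1 (-0.37, adjusted p = 0.0536).

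**Figure D4:**
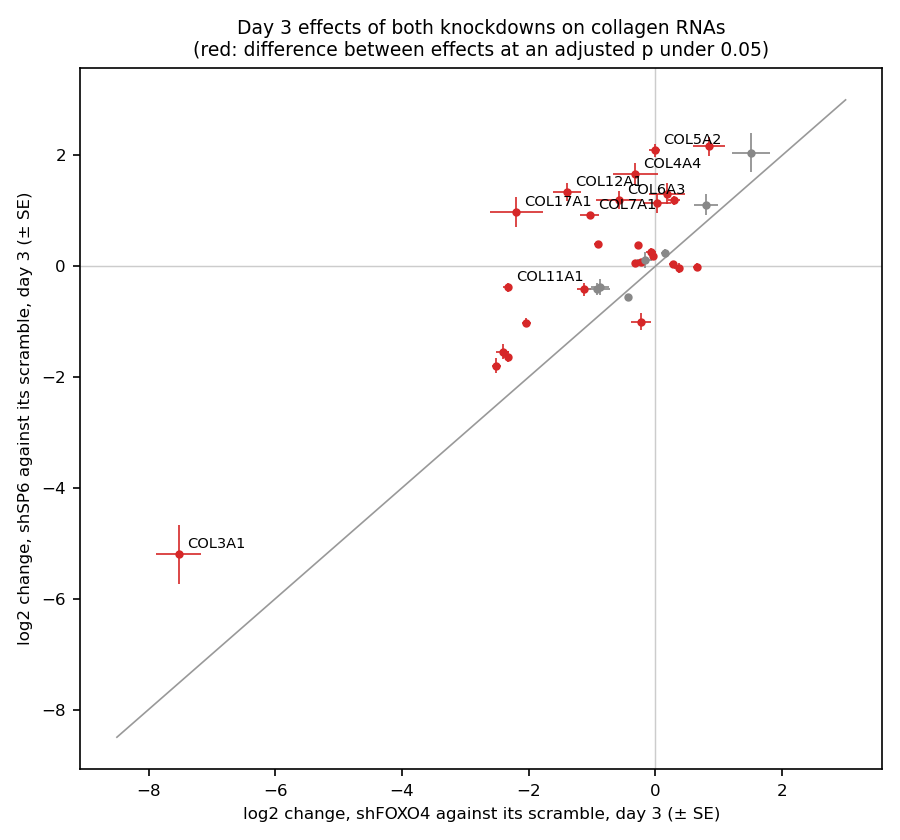
Log2 change of each collagen gene with shFOXO4 (x axis) and shSP6 (y axis) at day 3, each against its own scramble, with SE bars; red marks a difference between both effects at an adjusted p under 0.05 and the diagonal marks equal effects. Most points lie above the diagonal, COL3A1 at -7.53 and -5.20 and COL17A1 at -2.20 and 0.97.

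At day 7 the members no longer lay on one side: 12 of 34 differences were higher and 9 lower with shSP6, against 19.9% and 29.1% (together 49.0%) of all 16043 genes tested, and the median was -0.00240 over the members and -0.11 over all genes. The highest were COL6A3, 5.40 (SE 0.53, limma adjusted p = 8.18e-06), and COL12A1, 4.71 (SE 0.43, limma adjusted p = 4.78e-06), and the lowest COL2A1, -2.48 (SE 0.20, limma adjusted p = 2.14e-06), and COL9A1, -1.75 (SE 0.22, limma adjusted p = 5.28e-05), among members whose mean reached 100 in each table. COL17A1 differed by 5.03 (SE 0.40, limma adjusted p = 1.82e-06) at a lower level. COL5A2, COL9A1, COL9A3, COL12A1 and COL17A1 had called changes in opposite directions in the 2 day 7 knockdowns, 5 of 33 members (15.2%) against 5.87% of all genes tested in all 5 comparisons. The COL9A1 rise with shFOXO4 lost its call without scramble replicate 1 or shFOXO4 replicate 2 (0.48 and 0.39).

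Between the days, the shFOXO4 effect differed for 24 of 33 members, 13 higher and 11 lower at day 7 (32.1% and 30.7% of all genes, together 62.7%), and the shSP6 effect for 24 of 34, 10 higher and 14 lower (14.8% and 20.3%, together 35.1%). COL11A1 had the highest difference with shFOXO4, 3.02 (SE 0.12, limma adjusted p = 1.47e-10), then COL7A1, 2.05 (SE 0.20, limma adjusted p = 9.43e-07), and COL3A1 and COL2A1 the lowest, -5.31 (SE 0.48, limma adjusted p = 3.66e-07) and -2.82 (SE 0.20, limma adjusted p = 2.86e-08). With shSP6, COL1A1 and COL7A1 were highest, 1.03 (SE 0.16, limma adjusted p = 4.59e-04) and 0.92 (SE 0.16, limma adjusted p = 8.81e-04), and COL2A1 and COL3A1 lowest, -6.17 (SE 0.19, limma adjusted p = 1.67e-09) and -4.14 (SE 0.81, limma adjusted p = 0.00218). These ranks hold among members whose mean reached 100 in each table. Both shFOXO4 libraries together held 2 COL3A1 reads at day 3 and 3 at day 7, while the mean scramble level was 304 and 19655. The COL3A1 difference of -5.31 thus follows the scramble levels, and its size depends on the 1 added to each count. COL3A1 was also low in the shSP6 libraries on both days, so the same limit holds for -4.14.

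The 2 day 7 scramble groups were set side by side with no test, because their tables were scaled separately. Over the 33 members with a mean of at least 10 across both groups, 11 (33.3%) differed by at least 2-fold, 5 higher in the FOXO4 series and 6 in the SP6 series, against 22.1% of 16468 genes. The median log2 difference was 0.02 over members and -0.25 over all genes. COL3A1 stood at 18595 and 20714 in the FOXO4 series and 6013 and 2382 in the SP6 series, the latter 2 libraries far apart. COL6A3 stood at 1419.5 and 1192 against 318 and 95.2, COL12A1 at 314 and 503 against 132 and 65.3, and COL17A1 at 131 and 168 against 26.2 and 19.9. COL8A2 and COL5A3 were lower in the FOXO4 series (5.73 and 3 against 58.1 and 67.5, and 6.69 and 1 against 30.7 and 48.7). COL6A3, COL12A1 and COL17A1, which stood so far apart between the scramble groups, are also members with large differences between the knockdown effects at day 7. The scramble levels enter those differences, so this overlap follows in part from how they are computed. The scramble gaps, FOXO4 series minus SP6 series, were 2.66, 2.04 and 2.64 in log2, beside differences between effects of 5.40, 4.71 and 5.03. In the knockdown libraries themselves COL17A1 stood at 17.1 and 27.2 (shFOXO4) and 131 and 104 (shSP6), so the order of the series turned round. The type IV genes COL4A5 (1874 and 1931 against 2125 and 1755) and COL4A6 (2318 and 2444 against 2255 and 1827) lay close together.

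**Figure D5:**
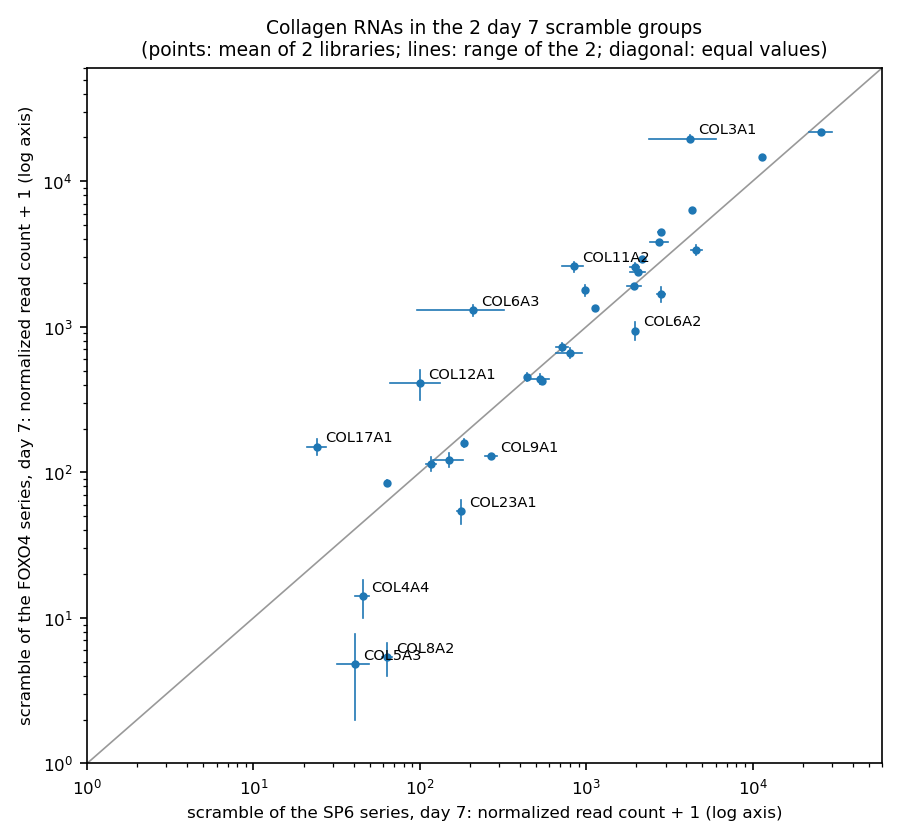
Mean normalized count plus 1 of each collagen gene in the day 7 scramble groups of the SP6 series (x, log axis) and the FOXO4 series (y, log axis), with lines for the range of the 2 libraries; the diagonal marks equal values and names mark differences of at least 2-fold. COL3A1, COL6A3, COL12A1 and COL17A1 lie above the diagonal, COL5A3 and COL8A2 furthest below it.

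The genes that modify, fold, cut and cross-link collagen chains were followed as lists. At SE day 3, of 76 collagen-handling genes tested, 21 rose and 37 fell (35.2% and 37.0% of all genes). P4HA1, a subunit of the prolyl hydroxylase that stabilises the helix, fell from 3314 and 3192 to 545 and 519.5, -2.61 (SE 0.06, limma adjusted p = 3.92e-13), and LOX, a cross-linking lysyl oxidase, from 247 and 212 to 13.7 and 16.1, -3.86 (SE 0.21, limma adjusted p = 2.90e-09). In all, 9 of 14 genes of prolyl and lysyl modification and 9 of 13 of cleavage and cross-linking fell, and 1 and 2 rose.

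At day 7, 9 of 13 folding and secretion genes rose, 0 fell and 4 were not called with shFOXO4, and the counts were the same with shSP6. Over all genes tested, 37.1% rose with shFOXO4 and 29.0% with shSP6. SERPINH1, the collagen chaperone, went from 6897 and 7268 to 26095 and 25595 with shFOXO4, 1.87 (SE 0.05, limma adjusted p = 7.90e-09), and from 10068 and 10599 to 18521 and 17057 with shSP6, 0.78 (SE 0.07, limma adjusted p = 1.34e-05). P4HA1 rose with shFOXO4 from 501 and 524 to 7017 and 7891, 3.86 (SE 0.07, limma adjusted p = 1.16e-09), and 11 of 14 modification genes rose and 2 fell there, against 6 and 3 with shSP6. At day 3, 5 of 13 folding genes rose and 5 fell with shFOXO4, and 5 rose and 4 fell with shSP6, while 5 of 14 modification genes rose and 5 fell with shFOXO4 and 5 rose and 8 fell with shSP6. Of the cleavage and cross-linking genes, 3 of 13 rose and 3 fell with shFOXO4 and 3 of 14 rose and 2 fell with shSP6 at day 3, and 6 rose in each day 7 knockdown while 3 and 5 of 13 fell.

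Among collagen receptors, ITGA1, the alpha chain of a collagen-binding integrin, fell in all 4 knockdowns, and ADGRG1, an adhesion receptor for type III collagen, fell with COL3A1. ADGRG1 rose at SE day 3 from 62.7 and 65.0 to 824 and 879, 3.72 (SE 0.11, limma adjusted p = 7.04e-12), and at day 7 fell from 2681 and 2679 to 108 and 105 with shFOXO4, -4.65 (SE 0.09, limma adjusted p = 1.11e-09), and from 1297 and 872 to 94.6 and 75.9 with shSP6, -3.63 (SE 0.19, limma adjusted p = 2.78e-07). Of the receptors tested, 3 rose and 2 fell of 7 at SE day 3, 1 rose and 6 fell of 7 with shFOXO4 at day 3, 4 rose and 3 fell of 8 at day 7, and with shSP6 1 rose and 5 fell of 7 at day 3 and 4 rose and 2 fell of 9 at day 7.

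Breakdown genes and regulators moved on both sides. TIMP3, an inhibitor of matrix metalloproteinases, rose at SE day 3 from 106 and 123 to 1005 and 907, 3.05 (SE 0.10, limma adjusted p = 3.40e-11), and 5 of 11 breakdown genes rose and 4 fell. In the knockdowns 1 rose and 7 fell of 10 (shFOXO4, day 3), 5 rose and 5 fell of 11 (shFOXO4, day 7), 3 rose and 7 fell of 11 (shSP6, day 3) and 5 rose and 2 fell of 11 (shSP6, day 7). CCN2, a matrix protein induced by TGF-beta, rose in both day 7 knockdowns, from 257 and 339 to 3533 and 4238 with shFOXO4, 3.71 (SE 0.13, limma adjusted p = 2.76e-08), and from 649 and 1536 to 9113 and 7709 with shSP6, 3.07 (SE 0.30, limma adjusted p = 1.46e-05). Of the regulators of collagen genes, 5 rose and 6 fell of 18 at SE day 3. With shFOXO4, 1 rose and 14 fell of 16 at day 3, and 4 rose and 10 fell of 17 at day 7. With shSP6, 3 rose and 9 fell of 19 at day 3, and 6 rose and 8 fell of 17 at day 7. Over all genes tested, 37.0% fell at SE day 3, 30.8% and 35.4% with shFOXO4 at day 3 and day 7, and 27.5% and 29.6% with shSP6. The shares of all genes that rose were 35.2% at SE day 3, 31.8% and 37.1% with shFOXO4, and 28.3% and 29.0% with shSP6. The receptor, breakdown, modification and cross-linking counts stand beside the same all-gene shares.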

How the data were processed

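The authors deposited 5 tables of normalized gene counts (a signal per gene, read counts divided by size factors), each of 4 libraries scaled on its own. Build hg19, DESeq2 1.20.0, RSEM 1.3.0, STAR 2.6.1 and Trimmomatic 0.39 are listed, without roles, per the submitters' processing notes. The annotation and the strand setting of counting are not given in the sources used here. Columns are named by arm and replicate, and day and series were taken from the name of the table.

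In 18 of 20 libraries 100.0% of the deposited values were whole reads after rescaling (tolerance 0.001). Log2 of the value plus 1 was tested within each table with limma 3.58.1 (R 4.3.3, trend), where a gene's mean reached 10, with Benjamini-Hochberg adjustment over all genes tested. Differences between effects were fitted over the 8 libraries of 2 tables. edgeR 4.0.16 on recovered reads was an added alternative for 3 tables, where it called 11891, 9935 and 10414 genes, against 11710, 9838 and 10268 by limma. The fit was tested on simulated data.

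Lengths are those of GENCODE transcripts. Named in full were COL1A1, COL1A2, COL3A1, COL4A1, COL4A2, COL7A1, COL17A1, the 5 highest and 5 lowest called members with a mean of at least 100 in a comparison, up to 4 genes of each other list, and the 2 highest and 2 lowest differences. Other members are named to account for them. Members and lists were chosen with earlier results of these data known.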

Additional observations from a re-analysis of the deposited data

Results flagged for a closer look

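Each of the following is a difference between 2 effects that was tested as such, by limma over 8 libraries with Benjamini-Hochberg adjustment, and that passed an adjusted p of 0.05. The values are log2 differences, and their SE and adjusted p stand in the report. Between the shFOXO4 effects at day 7 and day 3, COL11A1 differed by 3.02, COL7A1 by 2.05, COL3A1 by -5.31 and COL2A1 by -2.82. The COL3A1 value rests on 2 and 3 reads in the shFOXO4 libraries. Its size depends on the scramble levels and on the 1 added to each count. Between the shSP6 effects at day 7 and day 3, COL1A1 differed by 1.03, COL7A1 by 0.92, COL2A1 by -6.17 and COL3A1 by -4.14. Between the shSP6 and the shFOXO4 effect at day 3, COL3A1 differed by 2.33, COL5A2 by 2.10, COL4A2 by -0.66 and COL5A1 by -0.41. The COL5A1 call was lost without shSP6 replicate 1 (limma adjusted p = 0.0536), and the COL3A1 call without shSP6 replicate 2, either scramble library of the FOXO4 series or shFOXO4 replicate 1 (limma adjusted p 0.0604 to 0.135). Between the same effects at day 7, COL6A3 differed by 5.40, COL12A1 by 4.71, COL2A1 by -2.48 and COL9A1 by -1.75.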

How the results depend on the processing

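Across pseudocounts of 0.5 and 5, filters on the mean, TMM factors, 1 fit over all 20 libraries, edgeR and each library left out, 176 counts of called members stayed within 1.5 times the reported one. A floor of 1 on the absolute log2 change moved 10 counts: higher and lower members to 6 and 10 (SE day 3), 1 and 10 (shFOXO4, day 3) and 12 and 6 (shSP6, day 3), higher members to 9 in each day 7 knockdown, and differing members to 15 (shSP6, day 7 against day 3) and 13 (shSP6 against shFOXO4, day 3). Samples of a number did not deviate together (correlations of -0.012, 0.059, 0.017, -0.050 and -0.020). These values cannot show whether they shared a culture or a batch, which the labels do not say. With the replicate number as a block, 10 members were higher and 20 lower at SE day 3, and 17 were higher with shSP6 at day 7. Leaving out each library in turn gave 10 higher and 19 to 20 lower members at SE day 3, 6 to 8 and 17 with shFOXO4 at day 3, 14 to 16 and 16 at day 7, 15 to 20 and 9 to 11 with shSP6 at day 3, and 14 to 17 and 11 to 12 at day 7. Differing members ranged from 23 to 25 and from 21 to 26 between days (shFOXO4, shSP6) and from 23 to 29 and 18 to 20 between hairpins (day 3, day 7). Against controls, 16 calls were lost under at least 1 alternative, 0 of them at SE day 3 and 7 with shSP6 at day 3. Among differences between effects, 14 were lost: COL18A1 (shFOXO4, day 7 against day 3), COL1A2, COL16A1 and COL17A1 (shSP6, day 7 against day 3), COL3A1, COL4A1, COL5A1, COL6A1, COL13A1 and COL27A1 (shSP6 against shFOXO4, day 3), and COL4A4, COL8A1, COL13A1 and COL27A1 (day 7); the cause was not tested. Log2 changes that turned sign when 1 library was left out, none of them called, ranged from -0.0150 (without hESC replicate 2) to 0.147 for COL7A1 at SE day 3, from -0.0570 (without scramble replicate 1) to 0.145 for COL4A1 with shFOXO4 at day 7, and from -0.0398 to 0.0181 (without shSP6 replicate 2) for COL4A2 with shSP6 at day 3. Depth limits COL3A1 in the shFOXO4 libraries, which rests on 2 and 3 reads.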

Other observations

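COL22A1 was present in some tables and not in others. It stood at 0 in all 4 libraries of the hESC and SE day 3 table and at 0 in both day 7 scramble libraries of the FOXO4 series, with 0 and 1.05 in the shFOXO4 libraries, and the day 7 table of the SP6 series did not list it. In the 8 libraries of the day 3 knockdown tables it stood at 36.1 to 279.5. Of 14189 genes at 10 or more in all 8 of those libraries, 3 were at 0 or unlisted in all 3 other tables, and 5, COL22A1 among them, were at 0 or unlisted in the hESC and shSP6 day 7 tables and under 2 in each library of the shFOXO4 day 7 table. COL22A1 was singled out after its values were seen.

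Of the 10 members raised at SE day 3, 7 (70.0%) were lower in both day 7 knockdowns, against 47.2% of the 5516 genes raised over all genes tested in all 5 comparisons. Of the 19 members lowered at SE day 3, 7 (36.8%) were higher in both, against 41.0% of 5277 genes. Read the other way, 7 of 10 members lower in both day 7 knockdowns (70.0%) had risen at SE day 3, against 75.1% of 3470 genes. For members higher in both, 7 of 10 (70.0%) had fallen, against 72.4% of 2985 genes.

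Summed over all collagen genes, normalized counts were 37157 and 37461 in hESC and 46353 and 47217 at SE day 3. At day 7 they were 95815 and 99167 in scramble and 79942 and 80081 with shFOXO4, and 74964 and 77628 in scramble and 98614 and 93626 with shSP6. Long transcripts weigh more in such sums, and the tables were scaled separately.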
